A study of Mus musculus with 2 samples.

Results

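Mir137, Mir139, Mir153, Mir330, Mir383, Mir149 and Mir346 are 7 mouse microRNA (miRNA) genes grouped as single-locus brain miRNAs that lie in or near neuronal genes or in a noncoding host of their own. They were taken by gene symbol in GENCODE M21, and they are 7 of the 2202 miRNA genes in the count tables. RNA of under 30 nt was sequenced in 1 group, the left cerebral cortex of B6CASTF1/J mice aged 18 to 20 months, as 2 libraries labelled biological replicates 1 and 2. B6CASTF1/J is the first-generation hybrid of C57BL/6J with CAST/EiJ, and no treatment or other genotype is labelled. Both tissue records point to 1 donor record, so differences between these libraries may be technical, and no p-value measures a spread between animals. The exact binomial test used below sets these differences against counting noise only. The labels give the sex of the mice as male in one field and female in another, and sex was not used.

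A miRNA gene is transcribed as a longer precursor that is cut into a hairpin and then into a duplex. One strand of the duplex, called the 5p or 3p arm after its place in the hairpin, is loaded into Argonaute and pairs with target mRNAs mainly through its seed, bases 2 to 8. Hairpins within introns are usually released from the transcript of the host gene, while others have a promoter of their own. miR-137 is known as a regulator of neuronal maturation, miR-153 is reported to act on alpha-synuclein mRNA, and miR-139-5p is known as a restraint on growth signalling in tumours.

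Of the 7 genes, 6 matched the RefSeq miRNA table (GRCm38.p6), with 12 mature arms, and Mir383 did not. The hairpin coordinates of these 6 were the same in both annotations. A read count belongs to a whole hairpin, so the shares of the 2 arms were not measured. Both arms of each hairpin follow, 5′ to 3′ with the seed in capitals, because the seeds set these 6 genes apart from each other and show which other miRNAs could pair with the same sites.
miR-139-5p: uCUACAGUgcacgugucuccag
miR-139-3p: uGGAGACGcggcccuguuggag
miR-330-5p: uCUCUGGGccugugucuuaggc
miR-330-3p: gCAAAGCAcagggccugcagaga
miR-149-5p: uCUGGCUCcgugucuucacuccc
miR-149-3p: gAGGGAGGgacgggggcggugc
miR-137-5p: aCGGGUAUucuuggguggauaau
miR-137-3p: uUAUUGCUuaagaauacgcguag
miR-346-5p: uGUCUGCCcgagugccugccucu
miR-346-3p: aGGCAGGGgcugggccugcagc
miR-153-5p: gUCAUUUUugugacguugcagcu
miR-153-3p: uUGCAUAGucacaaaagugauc
No seed was shared among these 12 arms. GC content of the arms ran from 34.8% in miR-137-3p and 36.4% in miR-153-3p to 77.3% in miR-346-3p and 81.8% in miR-149-3p.

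The hairpins of the most abundant and the least abundant of the 6 genes, and of the one richest in GC, show how far the precursors differ. Both mature arms are in capitals. They lie at chr7:101475376-101475443, chr12:117250817-117250885 and chr1:92850378-92850443 (GRCm38, counted from 1), all on the plus strand.
Mir139: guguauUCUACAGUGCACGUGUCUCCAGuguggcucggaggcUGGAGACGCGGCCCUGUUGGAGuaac
Mir153: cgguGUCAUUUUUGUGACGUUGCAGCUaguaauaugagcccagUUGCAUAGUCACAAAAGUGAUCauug
Mir149: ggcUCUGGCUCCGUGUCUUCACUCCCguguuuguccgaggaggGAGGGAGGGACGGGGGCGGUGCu
Hairpin GC content was 58.8% for Mir139, 42.0% for Mir153 and 68.2% for Mir149. It was 58.2% for Mir330, 45.2% for Mir137 and 65.3% for Mir346. The median of these 6 was 58.5%, against 52.3% over the 401 tested loci with a RefSeq hairpin. Predicted folding energy (RNAfold minimum free energy) ran from -30.8 kcal/mol for Mir153 and -31.2 for Mir137 to -49.7 kcal/mol for Mir346. Per base its median was -0.48 kcal/mol over the 6 hairpins and -0.43 over the 401. In these predicted folds 74.6% of bases were paired at the median of the 6, and 70.8% at the median of the 401.

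None of the 6 hairpins shared a word of 20 bases, on either strand, with an annotated transcript of a gene outside its own locus. With words of 18 bases 4 of the 6 did, all but Mir139 and Mir137, and with words of 16 bases all 6 did. Only annotated transcripts were searched, so copies elsewhere in the genome were not looked for. Mir383 was not searched. The 7 genes also had no count on the opposite strand in either library, and their counts with both strands together equalled those of the gene strand. One miRNA gene lay within 10 kb of any of them: Gm24155, 791 bases beyond Mir137, with 0 reads in replicate 1 and 1 in replicate 2.

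The libraries held 8041772 reads in replicate 1 and 12239366 in replicate 2. Reads on the gene strand of miRNA genes made up 29.6% and 36.2% of them, 2381663 and 4436398 reads, and are the total behind each level in CPM (counts of a gene scaled to a common number of miRNA reads). Reads that map to several places stand under no gene and made up 35.6% and 44.8%. The upper limit that a count of 0 allows (3 counts) was 1.26 CPM for replicate 1 and 0.676 CPM for replicate 2. This limit and all intervals cover counting error only. Marker miRNAs of neurons summed to 86872 CPM in replicate 1 and 65600 in replicate 2 and those of astrocytes to 39398 and 46788 CPM. Members of both lists went opposite ways. Mir132 led the neuron list with 69646 and 43349 CPM, while Mir128-1 (14354 and 19064 CPM) and Mir128-2 (2869 and 3185 CPM) were higher in replicate 2. Of the astrocyte list, Mir29a and Mir23a were higher in replicate 2, and Mir26b and Mir29c in replicate 1. The neuronal hallmark miR-124 had at most 4 reads at any of its 3 loci. Its gene has several copies, and reads that map to several places are in no count, so its level was not measured here. The endothelial list stood at 17007 and 18138 CPM with Mir126b at 0, the mural list at 10928 and 5799 CPM, and the oligodendrocyte list at 4684 and 3502 CPM. Here too members went opposite ways. In the mural list Mir143 was higher in replicate 1 and Mir214 in replicate 2. In the oligodendrocyte list Mir338 stood at 3079 and 1778 CPM, and Mir219a-2 at 1600 and 1718 CPM. The blood and microglia list reached 1980 and 1910 CPM, the choroid plexus and ciliated list 1084 and 738 CPM, and the list of other organs 346 and 355 CPM. Of the blood and microglia list, Mir142 was higher in replicate 1 and Mir150 in replicate 2.

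The 7 genes together took 12.7% of the reads assigned to miRNA genes in replicate 1, with a 95% exact binomial interval of 12.68 to 12.76, and 14.9% in replicate 2, with one of 14.86 to 14.92. They came to a sum of 138046 ± 15376 CPM (SD, n = 2). Mir139 alone made up 78.9% of that sum in replicate 1 and 77.9% in replicate 2. The other 6 genes summed to 29851 ± 4324 CPM. Their levels spanned a wide range. The median of the 7 genes was 6661 CPM, against 40.6 CPM over the 472 loci with at least 10 reads in total, which are the loci tested. At least 1000 CPM on average was found for 5 of the 7 genes and for 95 of the 472 loci (20.1%). The 472 loci include genes with several copies, whose reads that map to several places are in no count. The 7 genes were grouped as single-locus, so the 2 sets are not alike in this. In bulk tissue, fewer cells of a type and less RNA per cell cannot be told apart, and with 1 tissue measured the label of brain enrichment was not tested.

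**Figure D1:**
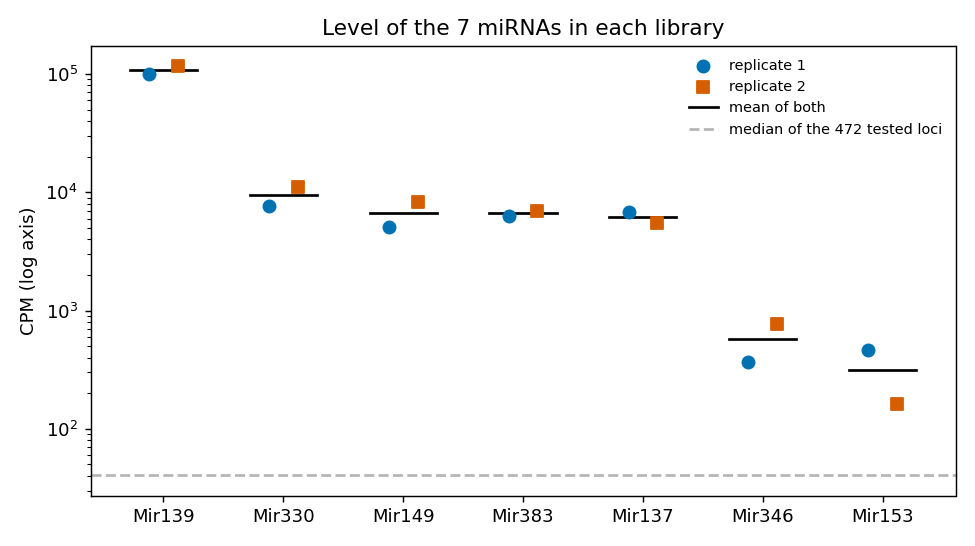
Level of each of the 7 miRNAs in CPM (log axis), with replicate 1 as circles, replicate 2 as squares, a bar at the mean of both, and a dashed line at the median of the 472 tested loci (40.6 CPM). Mir139 stands at 100380 and 116009 CPM, 4 genes lie between 5108 and 11152 CPM, and Mir346 and Mir153 lie between 162 and 768 CPM.

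Mir137 was the gene with a noncoding host. It (ENSMUSG00000065569.2) lies at chromosome 3, 118433857 to 118433929, plus strand, within exons of the noncoding gene Gm26871. In transcript Gm26871-201 the hairpin begins 60 bases after the transcript start, in exon 1, and in Gm26871-202 it lies in exon 3. Mir137 had 16310 reads in replicate 1 and 24373 in replicate 2, or 6848 and 5494 CPM, a mean of 6171 ± 958 CPM (SD, n = 2). Replicate 1 was the higher library, with a coefficient of variation of 15.5%. Neither arm of miR-137 shared its seed, or bases 2 to 7, with another miRNA of the RefSeq table.

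Mir139 lies within Pde2a, which encodes a phosphodiesterase that breaks down cyclic nucleotides. The gene (ENSMUSG00000065446.1) is in intron 2 of 30 in transcript Pde2a-201, an intron of 29902 bp, and the overlapping gene Gm45837 also contains it. Mir139 had 239072 reads in replicate 1 and 514663 in replicate 2, or 100380 and 116009 CPM, a mean of 108195 ± 11051 CPM. It was the 2nd most abundant tested locus in replicate 1 and the 1st in replicate 2. Mirlet7g, which restrains growth-promoting transcripts, was the nearest locus in level, with 115592 CPM in replicate 1 and 103411 in replicate 2. The ranges of Mir139 and Mirlet7g overlapped. The lower library of Mir139 stood far above the higher library of Mir330, the next of the 7 genes, and the means were 11.5-fold apart. miR-139-3p shared bases 2 to 7 with miR-6397, whose gene had 0 reads in both libraries.

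Mir153 lies within Ptprn2, which encodes phogrin, a membrane protein of secretory vesicles. The gene (ENSMUSG00000065538.1) is in intron 19 of 22 of Ptprn2-201, an intron of 4902 bp, 764984 bases after the transcript start. The antisense gene Gm5441 overlaps the locus on the other strand. Mir153 had 1116 reads in replicate 1 and 720 in replicate 2, or 469 and 162 CPM, a mean of 315 ± 217 CPM. It was the least abundant of the 7 genes on average and varied most, with a coefficient of variation of 68.7%. Replicate 1 held more reads of Mir153 although it was the smaller library. miR-153-3p shared bases 2 to 7 with miR-448-3p, whose gene Mir448 stood at 16.8 and 17.1 CPM in replicates 1 and 2. It shared them also with miR-6335, at 0 reads in both.

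Mir346 lies within Grid1, which encodes the delta1 glutamate receptor subunit of synapses. The gene (ENSMUSG00000065481.1; chromosome 14, 34894609 to 34894706, plus strand) is in intron 2 of 15 of Grid1-201, an intron of 123044 bp. Mir346 had 883 reads in replicate 1 and 3408 in replicate 2, or 371 and 768 CPM, a mean of 569 ± 281 CPM. Here replicate 2 was the higher library, and the coefficient of variation was 49.4%. The ranges of Mir346 and Mir153 overlapped, so the spread between the libraries left them without a clear order. The seed of miR-346-3p was found also in miR-7001-5p, whose gene had no read in either library.

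Mir330 lies within Eml2, which encodes a microtubule-associated protein of the EMAP family. The gene (ENSMUSG00000065543.1; chromosome 7, 19181465 to 19181562, plus strand) sits in intron 1 of 18 of Eml2-201, an intron of 485 bp, 261 bases after the transcript start. The noncoding transcript Eml2-205 carries the hairpin in exon 1. Mir330 had 18310 reads in replicate 1 and 49475 in replicate 2, or 7688 and 11152 CPM, a mean of 9420 ± 2450 CPM. Replicate 2 was higher. The seed of miR-330-5p is shared with miR-326-3p, printed here to show the match.
miR-326-3p: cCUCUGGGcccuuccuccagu
Mir326 stood at 574 and 796 CPM in replicates 1 and 2, below Mir330 and higher in the same library. The seed of miR-330-3p is shared with miR-6240, whose gene had 16 and 21 reads.

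Mir149 lies within Gpc1, which encodes glypican-1, a cell-surface heparan sulfate proteoglycan. The gene (ENSMUSG00000065470.1) is in intron 1 of 8 of Gpc1-201, an intron of 21249 bp, 2903 bases before its end. Mir149 had 12165 reads in replicate 1 and 36914 in replicate 2, or 5108 and 8321 CPM, a mean of 6714 ± 2272 CPM. Replicate 2 was again the higher library. The seed of miR-149-3p is shared with miR-7016-5p, miR-1943-5p and miR-6967-5p, and no gene of these had more than 12 reads in either library.

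Mir383 lies within Sgcz, which encodes zeta-sarcoglycan. The gene (ENSMUSG00000065457.3; chromosome 8, 38252133 to 38252202, minus strand) is in intron 1 of 7 of Sgcz-201, an intron of 707667 bp. Mir383 had 15028 reads in replicate 1 and 31106 in replicate 2, or 6310 and 7012 CPM, a mean of 6661 ± 496 CPM. Of the 7 genes it varied least between the libraries, with a coefficient of variation of 7.45%. The ranges of Mir330 and Mir149, of Mir149 and Mir383, and of Mir383 and Mir137 overlapped. Within each library Mir330 stood above Mir149, at 7688 against 5108 CPM in replicate 1 and 11152 against 8321 CPM in replicate 2. The order of Mir149 and Mir383, and that of Mir383 and Mir137, changed between the libraries, so neither pair had a distinguishable order. Mir137 and Mir346, the next pair down, did not overlap, with means 10.8-fold apart.

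**Figure D2:**
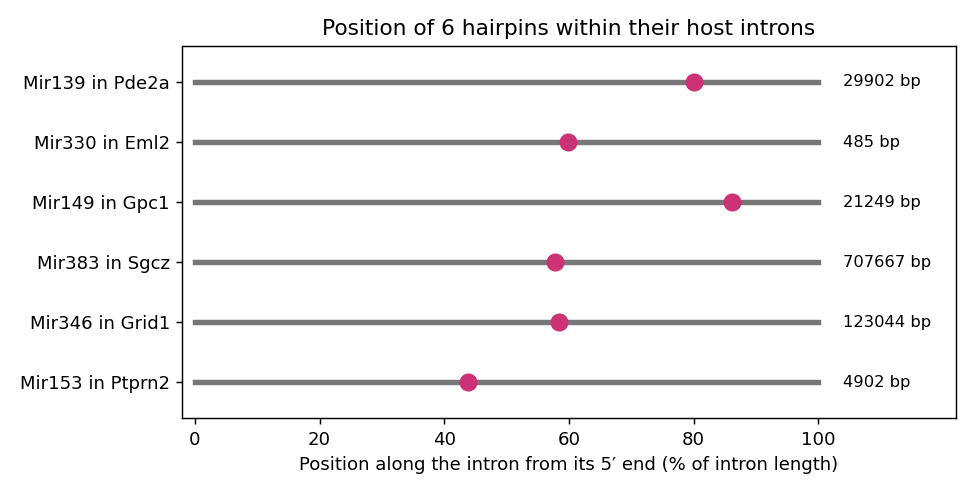
Position of the 6 intronic hairpins along the host intron of 1 protein-coding transcript each (horizontal axis, per cent of intron length from its 5′ end), with the intron length at the right. The hairpins lie between 43.9% (Mir153) and 86.2% (Mir149) of the intron, and the introns run from 485 bp to 707667 bp.

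By position, 6 of the 7 genes lay in an intron of a protein-coding transcript on their strand, as did 238 of the 472 tested loci (50.4%). Lying in or near a neuronal gene, or in a noncoding host, was part of the grouping, so this share was fixed in part beforehand. The intron lengths are likewise a description of the chosen genes. Taking the shortest such intron around each locus, the median intron length was 20539 bp for the 6 genes and 3002 bp for the 238 loci. For the 6 genes it ran from 353 bp for Mir330 to 707667 bp for Mir383. Intronic loci as a class were lower, with a median of 16.7 CPM, and 37 of the 238 (15.5%) reached 1000 CPM. Mir139, Mir330, Mir149 and Mir383 were among these 37. RNA of under 30 nt does not measure the host mRNAs, so no level of a miRNA could be set against its host, and that the hosts act in neurons rests on the label alone.

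**Figure D3:**
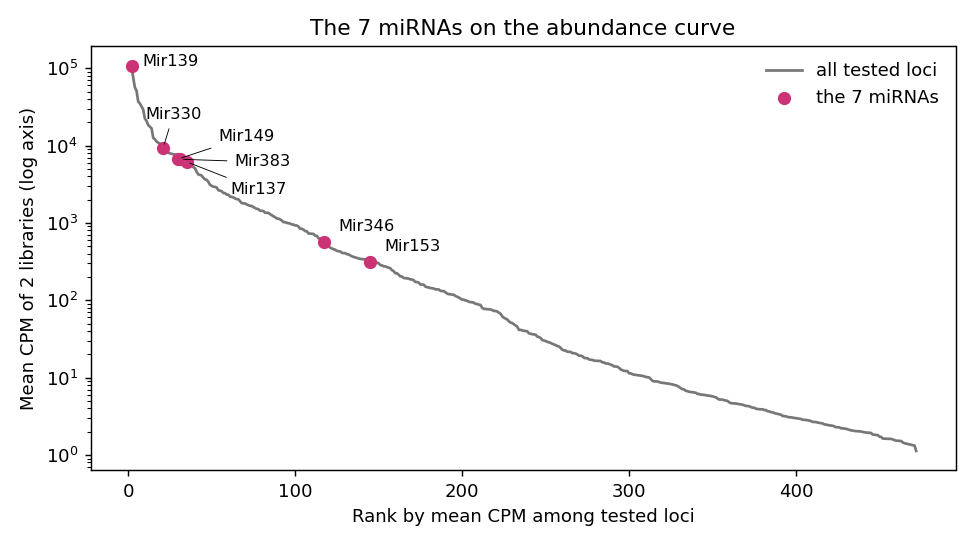
Mean CPM of the 2 libraries (vertical log axis) against rank by mean CPM among the 472 tested loci, with the 7 miRNAs as points on the curve. Mir139 holds rank 2, Mir330, Mir149, Mir383 and Mir137 hold ranks 21 to 35, and Mir346 and Mir153 hold ranks 117 and 145.

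By rank the 7 genes fell into 3 stretches of the abundance curve. Ranks, like the medians above, leave out reads that map to several places, which bears on loci with several copies. Mir139 ranked 2nd, Mir330, Mir149, Mir383 and Mir137 ranked 21, 30, 31 and 35, and Mir346 and Mir153 ranked 117 and 145. Ranks moved with the library: Mir149 ranked 39 in replicate 1 and 26 in replicate 2, while Mir153 ranked 120 and 171. Over the 2 libraries, the locus nearest in log2(CPM + 1) to Mir330 was Mir22 (distance 0.05), that nearest to Mir383 was Mir324 (0.07) and that nearest to Mir137 was Mir487b (0.11). Mir149 was nearest to Mir30d (0.39), Mir346 to Mir3099 (0.23), Mir153 to Mirlet7f-1 (0.47) and Mir139 to Mirlet7g (0.26). With only 2 libraries this likeness is mainly one of level.

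The libraries were compared gene by gene to see which of the 7 genes were steady and which were not. Mir153 was higher in replicate 1 by a log2 ratio of 1.56 (95% exact counting interval 1.42 to 1.69), and Mir137 by 0.35 (0.32 to 0.37). The other 5 genes were lower in replicate 1. Mir346 had a log2 ratio of -1.02 (-1.13 to -0.92), Mir149 of -0.68 (-0.71 to -0.65) and Mir330 of -0.51 (-0.53 to -0.48). Mir139 had -0.18 (-0.19 to -0.17) and Mir383 -0.12 (-0.15 to -0.10). All 7 passed a two-sided exact binomial test, which allows for counting noise only, with Benjamini-Hochberg adjustment over the 472 loci. The weakest call was Mir383 (adjusted p = 1.1e-17, exact binomial test). Over the 472 loci 52.1% passed, 24.6% higher in replicate 1 and 27.5% higher in replicate 2. Abundant loci pass this test at small differences, and 93.8% passed among the 145 loci at or above the mean level of Mir153. The count of 7 is therefore near the background of loci of their level.

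Mir153, Mir346 and Mir149 were at least 1.5-fold apart, 3 of 7, against 41.9% of the 472 loci and 33.1% of the 145. At 2-fold, Mir153 (2.94-fold) and Mir346 (2.03-fold) remained, where 19.9% of the 472 loci did. The median size of the log2 ratio was 0.51 for the 7 genes, 0.47 for all tested loci and 0.37 for the 145 loci at or above the mean level of Mir153. By size of the log2 ratio, 35 loci lay further apart than Mir153, 91 further than Mir346 and 403 further than Mir383. The exact test of edgeR, given the common dispersion of the libraries themselves (coefficient of variation 0.351), called none of the 7 genes and 2 of the 472 loci (0.424%). It sets 1 library against 1 and gives no replicate check. The smallest adjusted p among the 7 in edgeR's exact test was 0.80, for Mir153.

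**Figure D4:**
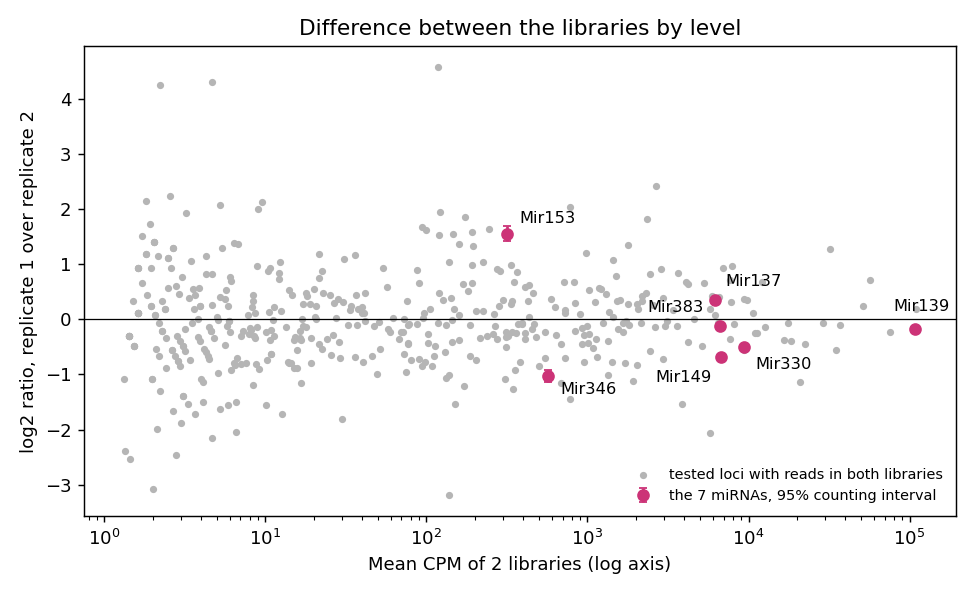
log2 ratio of replicate 1 over replicate 2 (vertical axis, TMM-scaled) against mean CPM (horizontal log axis) for tested loci with reads in both libraries (grey) and the 7 miRNAs (coloured, bars are 95% exact counting intervals). Mir153 at 1.56 and Mir346 at -1.02 lie furthest from 0, and the other 5 lie between -0.68 and 0.35.

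The direction of the difference went with the base composition of the hairpin. Mir153 and Mir137, the 2 genes higher in replicate 1, had the lowest hairpin GC content of the 6 with a RefSeq sequence, 42.0% and 45.2%. Mir346 and Mir149, at 65.3% and 68.2%, had the most negative ratios. The other tested loci showed the same ordering. Their median log2 ratio was 0.40 below 45% GC (86 loci), 0.23 from 45 to 50% (70 loci), -0.14 from 50 to 55% (87 loci), -0.15 from 55 to 60% (63 loci) and -0.30 at 60% or more (88 loci). Of the loci below 45% GC 68.6% were higher in replicate 1, against 28.4% of those at 60% or more. Over these 394 loci Spearman's rho between GC content and log2 ratio was -0.34 and Pearson's r -0.30, and over the 149 loci with at least 1000 reads in total they were -0.39 and -0.33. These describe loci of the same 2 libraries, which are not independent replicates.

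**Figure D5:**
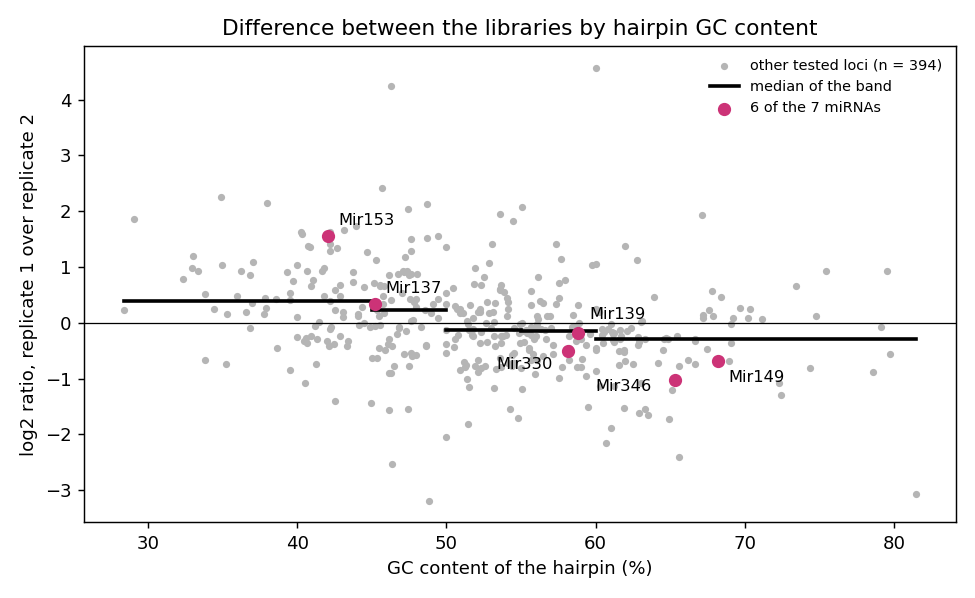
log2 ratio of replicate 1 over replicate 2 (vertical axis, TMM-scaled) against hairpin GC content in per cent (horizontal axis) for 394 other tested loci with reads in both libraries (grey), 6 of the 7 miRNAs (coloured) and the median of 5 GC bands (black bars). The band medians go from 0.40 below 45% GC to -0.30 at 60% or more, and Mir153 lies above and Mir346 below the median of its band.

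Loci of similar GC content, within 5 percentage points of a gene's hairpin, had a median ratio of the same sign as the gene, smaller in size for all but Mir139. The 102 loci around Mir153 had a median log2 ratio of 0.23, which left Mir153 1.32 above it. The 67 loci around Mir346 had -0.30, and Mir346 differed from them by -0.73. Mir137 lay 0.12 above the 0.23 of the 129 loci around it and Mir139 0.04 above the -0.22 of the 127 around it. Mir330 differed from the loci around it by -0.28 and Mir149 by -0.38. Mir153 stood above the upper quartile of its GC neighbours, 0.75, and Mir346 below the lower quartile of its own, -0.69, while Mir137, Mir139, Mir330 and Mir149 lay between the quartiles of theirs. Marker sums moved between the libraries too, the mural list being at 10928 CPM in replicate 1 and 5799 in replicate 2. Mir143 alone made up most of that mural sum, with 10428 and 5447 CPM. Mir214 of the same list was slightly higher in replicate 2, at 73.5 and 80.5 CPM. The part of GC content or cell makeup in the differences was not tested.

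Other neuronal miRNAs were taken from a list of 35, of which 34 matched a symbol and 30 were tested. They summed to 103440 ± 13788 CPM (SD, n = 2), 113189 in replicate 1 and 93691 in replicate 2. Mir132, an activity-regulated miRNA, led it at 56498 ± 18595 CPM, with 69646 CPM in replicate 1 and 43349 in replicate 2. Without Mir132, left out after its values were seen, the list summed to 43544 CPM in replicate 1 and 50342 in replicate 2. Mir132 was followed by Mir128-1 at 16709 ± 3331 CPM, Mir433 at 9847 ± 1537 CPM and Mir128-2 at 3027 ± 223 CPM. The median over the 30 tested loci was 386 CPM, and 11 of the 30 reached 1000 CPM. The binomial test called 20 of the 30, 9 higher in replicate 1 and 11 in replicate 2, where 52.1% of all tested loci passed. The list holds genes with several copies, such as those of miR-124 and miR-9, whose reads that map to several places are in no count, so its sum is not set against that of the 7 genes.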

How the data were processed

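Per the labels, RNA of under 30 nt from left cerebral cortex was sequenced in 2 libraries of 1 group. The authors deposited raw read counts per miRNA gene for each library, with 1 column for both strands and 1 for each strand. Per the file headers and the notes deposited beside them, reads were counted on build mm10 with the GENCODE M21 annotation. The aligner is not given in the sources used here. The gene-strand column was used, and the 4 summary lines were left out of totals and tests (unmapped reads 30.8% in replicate 1 and 14.6% in replicate 2, no-feature reads 4.01% and 4.38%).

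CPM is a count over the sum of gene-strand counts at miRNA genes. Ratios used TMM factors from edgeR 4.0.16 in R 4.3.3 (0.990 and 1.01), over loci with at least 10 reads in total. The two-sided exact binomial test used scipy 1.17.1 with a threshold of 0.05. With 1 group, no quasi-likelihood test exists, so edgeR's exact test and DESeq2 1.42.0 size factors are alternatives. Hairpins came from the RefSeq table (401 of 472 tested loci, 85.0%) and were folded with ViennaRNA 2.7.2. The binomial test was checked on simulated counts of these 472 loci with counting noise only. It called 1.49% of unchanged loci, 60.4% of those changed 1.5-fold, 69.6% of those changed 2-fold and 98.0% of those changed 8-fold. Counting noise is all that this test assumes, so the simulation gives no rate of false calls for the real libraries.

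The members and lists were chosen with earlier results of these data known. Named are the 7 genes, their hosts, the locus nearest in level to each, loci sharing a seed or position, and the 4 leading members of the other neuronal list. The GC comparison was chosen after the ratios were seen.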

Additional observations from a re-analysis of the deposited data

How the results depend on the processing

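The log2 ratios of the 7 genes kept their sign under all 8 alternatives (scaling, read minimum, strand column, pseudocount and edgeR's exact test). Mir383 ranged between -0.15 and -0.05 and Mir346 between -1.05 and -0.95. Only scaling and the strand column changed the library totals behind a ratio, so the other alternatives could not change a sign. Ratios with all reads of a library as total were not computed. All 7 stayed past the binomial test wherever it was rerun. The dispersion in edgeR's exact test came from the same 2 libraries that it compares, so its calls are no check on these. edgeR's exact test called 0 of the 7 genes, 0 of the other neuronal list and 2 of the 472 loci. Scaled to all reads of a library, the 7 genes summed to 45821 (37664 in replicate 1 and 53978 in replicate 2). These sums of the libraries lay further apart than in CPM. With all reads in place of miRNA reads, the other neuronal list summed to 33741 (33522 in replicate 1 and 33960 in replicate 2). The median of the 7 was then 2205. With both strands counted together that median was 7279 CPM. The counts of the 7 genes were the same there, and only the total behind CPM was smaller. Without 1 replicate each, the sum of the 7 genes lay between 127173 and 148918 CPM, the other list between 93691 and 113189 CPM and the median of the 7 between 6310 and 7012 CPM. Of the 6 neighbouring pairs in the order by level, 3 kept their order without replicate 2 and 6 without replicate 1. With 1 read as the minimum 429 loci were at least 1.5-fold apart. With the minimum of 10 reads kept, 94 were at least 2-fold apart. With DESeq2 size factors 53.1% of called loci were higher in replicate 1, against 47.2% with TMM. A ratio needs both libraries, so no replicate could be left out of it. No paired analysis was possible because there is 1 group. With 2 libraries, no gene has a spread of its own beyond 1 difference. Reads that map to several places are not in any gene's count.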
